A study of Mus musculus with 6 samples.

Results

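The lysyl oxidase family comprises the 5 genes Lox, Loxl1, Loxl2, Loxl3 and Loxl4, which were taken by their symbols out of 24063 gene symbols in the tables. No measured value entered the choice. All 5 genes were detected in all 6 libraries and all 5 passed the filter on low counts. Together they are listed as 8 of 33068 transcripts, 3 for Lox, 2 for Loxl4 and 1 for each of the others.

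Lysyl oxidases are secreted copper amine oxidases that oxidize lysine side chains of collagens and elastin to aldehydes. The aldehydes then condense into the covalent cross-links that give the extracellular matrix its tensile strength and recoil. Lox and Loxl1 are synthesized with a propeptide that proteases remove outside the cell, whereas Loxl2, Loxl3 and Loxl4 carry scavenger receptor cysteine-rich domains in front of a shared catalytic domain. In the lung, Lox is required for normal airway and vessel walls, and Loxl1 for the upkeep of elastic fibres.

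What unites the family is the catalytic domain, whose copper is held by closely spaced histidines. The coding sequence of that copper-binding segment is 33 bases long and is shown for 4 of the members, because it shows both how alike the genes are at their active site and where they differ. The 4 histidine codons are in capitals and the sequences are read 5′ to 3′ on the coding strand, from GENCODE vM21 transcripts on GRCm38, the build also called mm10.
Loxl1: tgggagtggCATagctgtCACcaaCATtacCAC
Loxl2: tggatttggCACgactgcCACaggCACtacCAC
Loxl3: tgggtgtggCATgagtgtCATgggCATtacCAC
Loxl4: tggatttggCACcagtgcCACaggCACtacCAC
Loxl2 and Loxl4 were the most similar of these and matched at 31 of 33 bases, with the same codon at all 4 histidines. Loxl1 matched Loxl2 at 22 bases, Loxl4 at 21 and Loxl3 at 25. Loxl3 matched Loxl2 and Loxl4 at 25 bases each. The 33 bases are split by an intron in every gene, with 23 bases before it and 10 after it.

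In Loxl1 the segment lies on the minus strand in exon 3 (chr9:58294359-58294381) and exon 4 (chr9:58293720-58293729) of 7 exons. In Loxl2 it lies on the plus strand in exon 10 (chr14:69682316-69682338) and exon 11 (chr14:69689028-69689037) of 14. In Loxl3 it lies on the plus strand in exon 10 (chr6:83049995-83050017) and exon 11 (chr6:83050116-83050125) of 14. In Loxl4 it lies on the minus strand in exon 11 (chr19:42599877-42599899) and exon 12 (chr19:42598807-42598816) of 15. The longest run of bases shared exactly by the transcripts of 2 members was 11 to 32 over the 10 pairs, all 5 genes included.

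The data are bulk RNAseq of lung endothelial cells (ECs) from male C57BL6 mice, isolated with anti-CD31 antibody and magnetic beads over 2 columns. In 1 group the ECs came from lungs 7 days after unilateral pneumonectomy (PNX), the removal of the left lung, after which the remaining lung grows. The controls were sham-operated mice, in which the chest was opened and no lung removed. The labels name no mutant allele and no agent for either group, each group had 3 libraries, and each library was pooled from 2 mice. The labels give an age of 8 weeks, and the study's methods give an older age at surgery.

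Total counts ranged from 33374216 to 81282871 in sham and from 29526989 to 74382176 in PNX, with replicate 3 the lowest in both groups. In the labels, replicates 1 and 2 of each group carry the mark re-used (called the earlier deposit here), which replicate 3 does not (the later deposit). Counts of replicates 1 and 2 differed by little more than counting error (chi-square per degree of freedom of 1.75 in sham and 1.57 in PNX), against 67.9 to 87.1 for pairs with replicate 3. The study counts the 3 pools of a group as separate samples. Here replicates 1 and 2 were summed to 1 sample because they lie so close, which left 2 samples per group. The p-values of fits on these samples rest only on the spread between them, which is estimated mostly from other genes. Fits on 6 libraries also take in the spread between replicates 1 and 2.

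Lengths differ between the genes, so levels were compared between members as deposited TPM (a level scaled for transcript length and library size), with 1 transcript per gene. Loxl1 was the highest member in all 6 libraries, at 36.1, 37.0 and 39.2 TPM in sham and 82.1, 82.8 and 72.9 TPM in PNX. Lox stood at 26.6, 25.4 and 11.5 TPM in sham and at 28.3, 28.4 and 18.9 TPM in PNX. Loxl2 had 12.1, 12.6 and 10 TPM in sham and 30.2, 30.7 and 35.4 TPM in PNX. Loxl2 thus lay below Lox in every sham library and above Lox in every PNX library.

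Loxl3 followed at 9.20 to 9.89 TPM in sham and 12.9 to 13.6 TPM in PNX. Loxl4 was the lowest member throughout, at 2.47 to 2.61 TPM in sham and 3.12 to 3.44 TPM in PNX. In sham replicate 3, Lox, Loxl2 and Loxl3 were close together, at 11.5, 10 and 9.89 TPM. Their order there lies within the range of Lox between sham libraries. Lox and Loxl2 in PNX replicates 1 and 2 were also close, with Loxl2 ahead by less than the distance of either from replicate 3.

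The place of Lox in this order depends on how its transcripts are counted. Its 3 transcripts had almost the same counts, the lowest having 97.5% to 98.4% of the count of the highest in each library, and the 2 Loxl4 transcripts had identical counts. When TPM was summed over transcripts, Lox reached 83.2, 79.6 and 36.2 TPM in sham and 88.6, 88.9 and 59.0 TPM in PNX. Lox was then the highest member in replicates 1 and 2 of both groups and second to Loxl1 in replicate 3 of both. If a read shared by transcripts was counted on each, summing counts it once for each, so the level of Lox relative to the other members is uncertain, while its ratio between libraries is hardly touched.

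The 5 genes together amounted to 86.7, 86.9 and 73.1 TPM in the sham libraries and 157, 159 and 144 TPM in the PNX libraries, with 1 transcript per gene. Loxl1 made up 41.6%, 42.6% and 53.6% of the family in sham and 52.4%, 52.2% and 50.6% in PNX. The share of Loxl2 was 13.7% to 14.5% in sham and 19.3% to 24.6% in PNX, with no overlap between the groups. The share of Lox was 15.8% to 30.6% in sham and 13.1% to 18.1% in PNX, and here the groups overlapped. These shares depend on the transcripts counted. With TPM summed over transcripts, Lox made up 57.1%, 55.4% and 36.1% of the family in sham and 40.2%, 40.0% and 31.5% in PNX, and Loxl1 24.7%, 25.8% and 39.1% in sham and 37.3%, 37.2% and 38.9% in PNX. The share of Loxl2 was then 8.29% to 9.98% in sham and 13.7% to 18.9% in PNX, again without overlap.

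**Figure D1:**
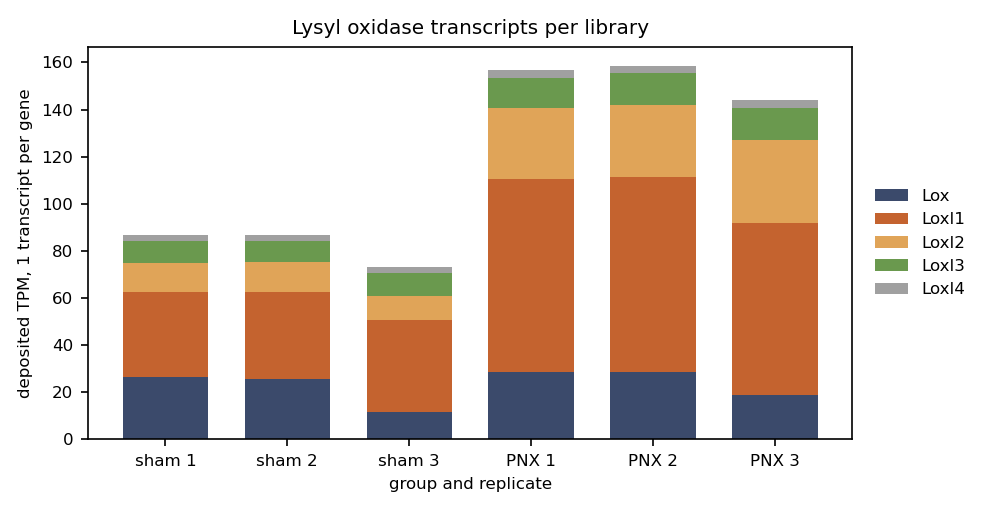
Deposited TPM of the 5 lysyl oxidase genes, stacked for each library, with 1 transcript per gene (y axis, TPM; x axis, group and replicate). The family totals 73.1 to 86.9 TPM in the sham libraries and 144 to 159 TPM in the PNX libraries, and the Loxl1 and Loxl2 segments are taller in every PNX library than in any sham library.

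Among all 24063 symbols ordered by TPM of their highest transcript, Loxl1 ranked between 3456 and 3840 in sham and between 1575 and 1777 in PNX. Loxl2 ranked between 8255 and 9308 in sham and between 3957 and 4514 in PNX. Loxl4 stayed near the middle of the list, between 12372 and 13051 over all libraries.

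Between sham and PNX, Loxl2 went from a mean of 23.1 to 68.3 CPM and Loxl1 from 50.4 to 104 CPM, and both were called higher once the samples were paired by deposit. Loxl3 and Loxl4 were higher in each PNX library than in any sham library, by less than the fold threshold, and the levels of Lox overlapped between the groups. The values are counts of each member, scaled by the TMM method to CPM, a level relative to the library's total and not scaled for length. The test was edgeR's quasi-likelihood test with Benjamini-Hochberg adjustment over all genes, and the thresholds of the study were kept: a call needed an adjusted p below 0.01 together with a log2 fold change beyond 1 in either direction. With 4 samples and no block, edgeR called 0 of 16598 genes (0%) and none of the 5 members, and limma-voom called 0 as well. With so few samples, a count of 0 is no evidence that levels were equal. At an unadjusted p under 0.05 it found 2076 genes (12.5%), and 3 of the 5 members, Loxl1, Loxl2 and Loxl3. The labels state no pairing of the groups, and the mark re-used, present in both, was taken here to pair them by deposit. With the deposit as a replicate block edgeR called 849 genes (5.12%). Of these 645 were higher after PNX (3.89%), and Loxl1 and Loxl2 were 2 of them.

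Loxl1 and Loxl2 were also the members called in 3 other fits without the block. With the 6 libraries as separate replicates edgeR called 409 genes (2.51%). DESeq2 called 927 genes with 6 libraries (5.3%) and 587 with 4 samples (3.35%). In each of these 3 fits 2 of the 5 members were called, both higher after PNX. The fits on 6 libraries treat the near-duplicate replicates 1 and 2 as independent, so they overstate the number of samples. In 4 of the 5 members, all but Lox, each of the 3 PNX libraries lay above each of the 3 sham libraries in CPM, as did 18.8% of all genes tested. An exact two-sided permutation test over 2 samples per group cannot go below p = 0.3333, and it gave that value for these 4 members and 0.667 for Lox.

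Loxl1 acts mainly in elastic fibres, where it binds tropoelastin and fibulin-5. Its level was 47.5, 48.8 and 52.5 CPM in the sham libraries and 111, 112 and 96.0 CPM in the PNX libraries. The groups were far apart, with the lowest PNX library well above the highest sham library. Means were 50.4 ± 2.30 CPM in sham against 104 ± 9.61 CPM in PNX (SD, n = 2 samples per group). The log2 fold change was 1.04 (SE 0.14, edgeR adjusted p = 0.0873) without the block and 1.04 (SE 0.10, edgeR adjusted p = 0.000462) with it, a distance from the fold threshold smaller than the SE. Loxl1 spans 58287738 to 58313186 on chromosome 9 and overlaps no other annotated gene.

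Loxl2 oxidizes collagen IV of basement membranes and is expressed by ECs during vessel growth. It stood at 24.7, 25.8 and 20.8 CPM in sham and at 63.3, 64.3 and 72.4 CPM in PNX. All PNX libraries were high, and replicate 3 was the lowest of the sham libraries and the highest of the PNX libraries. Means were 23.1 ± 3.50 CPM in sham against 68.3 ± 6.88 CPM in PNX (SD, n = 2 samples per group). The log2 fold change, 1.56 (SE 0.18, edgeR adjusted p = 0.0741) without the block and 1.56 (SE 0.13, edgeR adjusted p = 0.000278) with it, was the highest of the family in both fits.

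Loxl2 spans 69609068 to 69695834 on the plus strand of chromosome 14. There the antisense gene Gm27177, which has no values in the tables, shares 301 exonic bases with it, and Mir6950 shares 7 on the same strand. The libraries were stranded, and whether the counting used strand is not stated, so reads of Loxl2 and of the antisense gene may not be told apart in the shared bases.

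Loxl3, which oxidizes collagen and also fibronectin, was at 15.3, 14.7 and 16.1 CPM in sham and at 21.1, 22.3 and 21.4 CPM in PNX. Its levels were nearly level within each group and did not overlap between them. Means were 15.6 ± 0.515 and 21.6 ± 0.0322 CPM (SD, n = 2 samples per group), a log2 fold change of 0.47 (SE 0.14, edgeR adjusted p = 0.281) without the block and 0.48 (SE 0.10, edgeR adjusted p = 0.0130) with it. It was below the fold threshold in each fit. Loxl3 spans 83034173 to 83052562 on chromosome 6 and shares 535 exonic bases with Htra2 on the opposite strand, which had 787 to 1986 counts per library.

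Loxl4, the member most like Loxl2 at the copper site, had 10.6, 11.2 and 10.8 CPM in sham against 14.2, 13.7 and 14.8 CPM in PNX. The groups were separate, by a small distance. Means were 10.9 ± 0.224 and 14.4 ± 0.738 CPM (SD, n = 2 samples per group), and the log2 fold change was 0.40 (SE 0.16, edgeR adjusted p = 0.405) without the block and 0.40 (SE 0.11, edgeR adjusted p = 0.0409) with it. Loxl4 spans 42593982 to 42612813 on chromosome 19 with no overlapping gene. Its counts, 182 to 526 per library on 1 transcript, were the lowest of the family.

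Lox is the founding member of the family, and in Lox the groups overlapped. It was at 152, 145 and 67.2 CPM in sham and at 165.6, 166 and 108 CPM in PNX, summed over its 3 transcripts. Replicate 3 was low in both groups, and the PNX library of replicate 3 lay below sham replicates 1 and 2, which makes the overlap. Means were 109 ± 59.6 CPM in sham against 137 ± 39.7 CPM in PNX (SD, n = 2 samples per group). The log2 fold change was 0.33 (SE 0.44, edgeR adjusted p = 0.838) without the block and 0.41 (SE 0.13, edgeR adjusted p = 0.0690) with it, and no fit called it. Without sham replicate 3 the direction turned, at a log2 fold change of -0.12. Lox lies on chromosome 18 from 52516067 to 52529867, where an antisense gene without values in the tables, AC161119.1, shares 30 of its exonic bases.

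**Figure D2:**
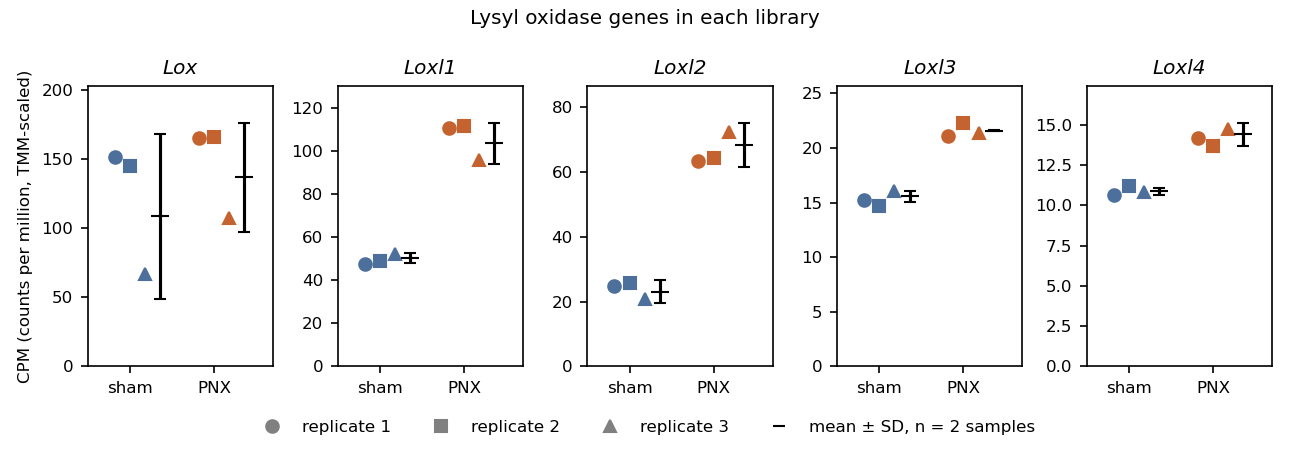
Level of each lysyl oxidase gene in each library (y axis, TMM-scaled CPM from 0, a separate scale for each gene; x axis, group), with marker shapes for replicates 1 to 3 and the mean ± SD of 2 samples per group, replicates 1 and 2 being summed to 1 sample. For Loxl1, Loxl2, Loxl3 and Loxl4 every PNX point lies above every sham point, whereas for Lox replicate 3 is low in both groups (67.2 and 108 CPM) and the groups overlap.

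Because replicates 1 and 2 of a group lie so close together, each deposit gives a single PNX to sham ratio, which was taken on 1 transcript per gene with an exact 95% interval that covers counting error only. For Loxl1 the ratio was 2.27 (2.205 to 2.33) in the earlier deposit and 1.86 (1.76 to 1.98) in the later one. For Loxl2 it was 2.48 (2.39 to 2.58) and 3.55 (3.26 to 3.87). Both genes were thus well above 1 in both deposits, and the later deposit gave the lower ratio for Loxl1 and the higher one for Loxl2.

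The ratio of Loxl3 was 1.42 (1.34 to 1.499) in the earlier deposit and 1.36 (1.21 to 1.52) in the later one, with overlapping intervals. That of Loxl4 was 1.26 (1.14 to 1.38) and 1.39 (1.14 to 1.703), again with overlapping intervals. Lox had ratios of 1.09 (1.06 to 1.13) and 1.64 (1.496 to 1.80). It was above 1 in both deposits and, in the earlier one, the lowest of the 5 genes.

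**Figure D3:**
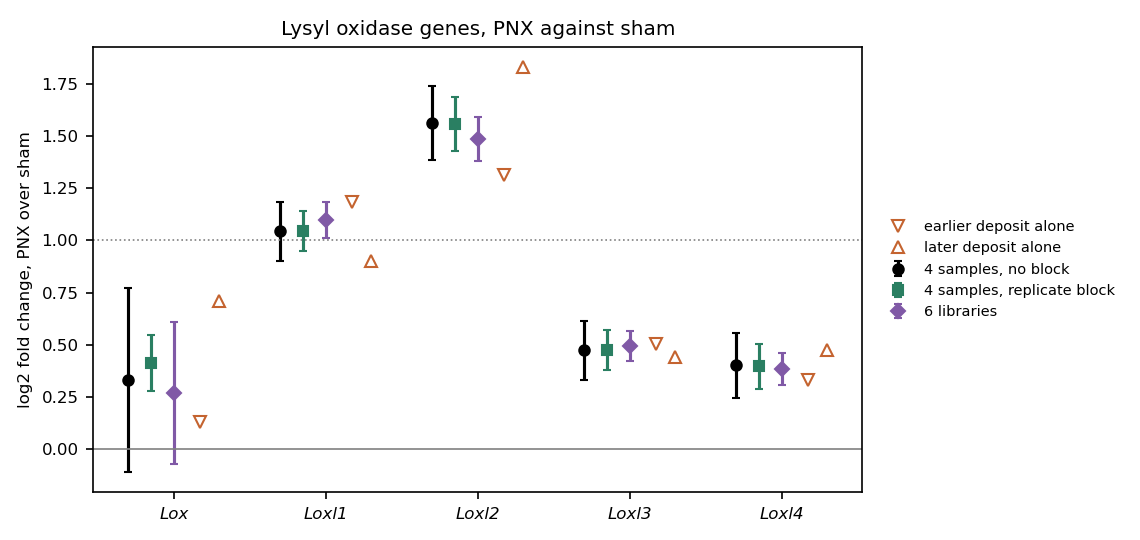
log2 fold change of each lysyl oxidase gene, PNX over sham (y axis), from edgeR with 4 samples, with 4 samples and the replicate block and with 6 libraries (filled symbols with SE bars), and within each deposit alone (open triangles, no error bars). The dotted line marks the fold threshold of 1. Loxl1 and Loxl2 lie above it in the 3 fits, Loxl1 falls to 0.90 in the later deposit alone, and Loxl3, Loxl4 and Lox lie below it throughout.

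Levels were then compared between deposits within a group. In sham, Lox was lower in the later deposit, by a log2 difference of -1.18 from the earlier one, and only 0.289% of the 16598 genes tested had a difference as low or lower. In PNX the difference was -0.60, with 5.51% of genes as low or lower. The other 4 members differed between deposits by -0.31 to 0.09 in sham and by -0.19 to 0.21 in PNX. Over the 14398 of these genes with at least 20 counts in each of the 4 samples, the lower and upper quartiles were -0.24 and 0.25 in sham and -0.21 and 0.26 in PNX. Loxl2 was somewhat outside the lower quartile in sham, and Loxl1, Loxl3 and Loxl4 were within the quartiles in both groups. The deposits cannot be told apart from other differences between replicate 3 and replicates 1 and 2, and the part of these in the level of Lox was not tested.

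**Figure D4:**
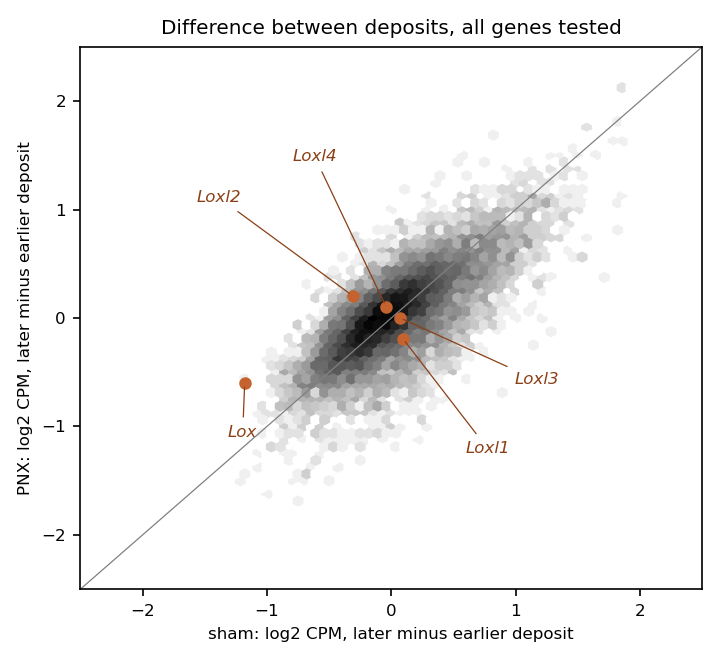
Difference in log2 CPM between the later and the earlier deposit, in sham (x axis) and in PNX (y axis), for the genes tested, as a density (darker for more genes on a log scale). The 5 lysyl oxidase genes are marked, the line marks equal differences, and 12 of 16598 genes lie outside the axes. Lox lies at the lower left edge at -1.18 and -0.60, while the other members lie near 0.

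Ratios between pairs of members were taken within each library. The log2 ratio of Loxl2 to Loxl3, in CPM, was 0.70, 0.81 and 0.37 in sham and 1.58, 1.53 and 1.76 in PNX. That of Lox to Loxl2 was 2.62, 2.495 and 1.69 in sham and 1.39, 1.37 and 0.57 in PNX, where each PNX library was below each sham library. The ratio of Loxl3 to Loxl4 overlapped between the groups, at a log2 ratio of 0.40 to 0.57 in sham and 0.54 to 0.71 in PNX. The CPM is summed over the transcripts of Lox and of Loxl4 and is not scaled for length. The size of a ratio therefore does not rank the members, and only its difference between libraries is read here. These ratios rest on near-duplicate libraries and were not tested.

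Against all genes tested with the replicate block, the log2 fold change of Loxl2 was at the 96.7th percentile and that of Loxl1 at the 94.5th. Loxl3 was at the 87.4th, Lox at the 85.6th and Loxl4 at the 85.1st percentile. The median over the 5 members was 0.48, against -0.01 over the 16598 genes.

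The genes on which lysyl oxidases act were described next, as elastin and the fibrillar and basement membrane collagens. Of 8 such genes 7 were called higher after PNX with the replicate block, against 3.89% of all genes tested. This list, like those below, was chosen with earlier results of these data known, so the share is a description only. The median log2 fold change of the 8 was 1.92. Col3a1, of the fibrillar collagen III that accompanies collagen I, was at 249, 250.0 and 306 CPM in sham and at 1206, 1210 and 1706 CPM in PNX. The libraries of the 2 groups were far apart. Its log2 fold change was 2.38 (SE 0.12, edgeR with block, adjusted p = 3.00e-05). Col1a1 and Col1a2, the chains of collagen I, had log2 fold changes of 2.41 and 2.12 and Col5a1, which nucleates collagen fibrils, 1.79 (edgeR with block, adjusted p = 2.09e-05, 2.71e-05 and 2.09e-05). Eln, the elastin gene, had 168, 176 and 151 CPM in sham against 587, 609 and 624 CPM in PNX, a log2 fold change of 1.92 (SE 0.11, edgeR with block, adjusted p = 5.46e-05).

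The basement membrane collagens, which ECs make themselves, had smaller fold changes. Col4a1 was at 937, 952 and 730 CPM in sham and at 1704, 1740 and 1643 CPM in PNX, a log2 fold change of 1.02 (SE 0.13, edgeR with block, adjusted p = 0.00227). Col4a2, its partner chain, was the substrate not called, at 0.96 (SE 0.13, edgeR with block, adjusted p = 0.00257). All 8 substrates had every PNX library above every sham library, as did 18.8% of all genes tested. Without the block edgeR called 0 of the 8, and with 6 libraries it called 6.

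Some scaffold and elastic fibre partners hold lysyl oxidases near their substrates. Of the 10 genes in this list 3 were called higher with the block and 7 were not called, with a median log2 fold change of 0.81. Fn1 encodes fibronectin, which binds Lox. It was at 2567, 2592 and 5062 CPM in sham and at 11910, 12050 and 15730 CPM in PNX, a log2 fold change of 1.93 (SE 0.19, edgeR with block, adjusted p = 0.000660). Fbn1, of the fibrillin microfibrils, was called at 1.25 (SE 0.09, edgeR with block, adjusted p = 0.000158).

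The third gene called was Fbn2, whose level was at most 1.91 CPM. Efemp2, or fibulin-4, which brings Lox to elastin, missed the fold threshold at 0.93 (SE 0.08, edgeR with block, adjusted p = 0.000351). Postn, which aids the activation of Lox, was at 469, 472 and 535 CPM in sham and at 946, 934 and 591 CPM in PNX, and was not called at 0.57 (SE 0.18, edgeR with block, adjusted p = 0.0635). Ltbp4, which deposits fibulin-5 on microfibrils, had a log2 fold change of -0.28 (SE 0.15, edgeR with block, adjusted p = 0.223).

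The genes listed for precursor processing and copper loading showed smaller differences. Of these 8 genes, 7 were tested (Tll2 was filtered out) and 0 were called, also with the block, with a median log2 fold change of 0.14. Bmp1, the protease that removes the Lox propeptide, was at 99.6, 102 and 89.0 CPM in sham and at 168, 173 and 192 CPM in PNX. Its log2 fold change of 0.93 (SE 0.11, edgeR with block, adjusted p = 0.00162) was under the fold threshold, as was that of its enhancer Pcolce at 0.80 (SE 0.08, edgeR with block, adjusted p = 0.000654). Pcolce2 had a log2 fold change of -0.63 (SE 0.16, edgeR with block, adjusted p = 0.0316). Atp7a, the pump that supplies copper to secreted enzymes, was at 97.6 to 111 CPM in sham against 94.2 to 101.3 CPM in PNX, with overlapping groups.

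Lysyl hydroxylation precedes cross-linking, because hydroxylysines give the more stable cross-links. Of the 5 genes 1 was called higher with the block and 4 were not, with a median of 0.62. The gene called was Fkbp10, a chaperone that assists lysyl hydroxylase 2, at 44.6, 47.2 and 49.8 CPM in sham against 96.9, 99.8 and 108 CPM in PNX (log2 fold change 1.11, SE 0.08, edgeR with block, adjusted p = 0.000146). Serpinh1, the collagen chaperone HSP47, missed the threshold narrowly at 0.99 (SE 0.12, edgeR with block, adjusted p = 0.00198). Serpinh1 had 1181, 1186 and 561 CPM in sham against 2167, 2200 and 1206 CPM in PNX and, like Lox, was low in replicate 3 of both groups. The lysyl hydroxylases Plod1 and Plod3 had log2 fold changes of 0.62 and 0.31 (edgeR with block, adjusted p = 0.00641 and 0.0314).

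The other copper amine oxidases, which oxidize soluble amines and lack the lysyl oxidase domain, were low throughout. None of the 3 was called with the block, and the median was -0.08. DESeq2 with 6 libraries called Aoc3 higher after PNX. Aoc3 was at 2.73, 2.69 and 4.51 CPM in sham against 6.14, 6.28 and 7.48 CPM in PNX, a log2 fold change of 0.98 (SE 0.17, edgeR with block, adjusted p = 0.00718). Aoc1 had -0.93 (SE 0.22, edgeR with block, adjusted p = 0.0231) and Aoc2 -0.08 (SE 0.20, edgeR with block, adjusted p = 0.830).

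**Figure D5:**
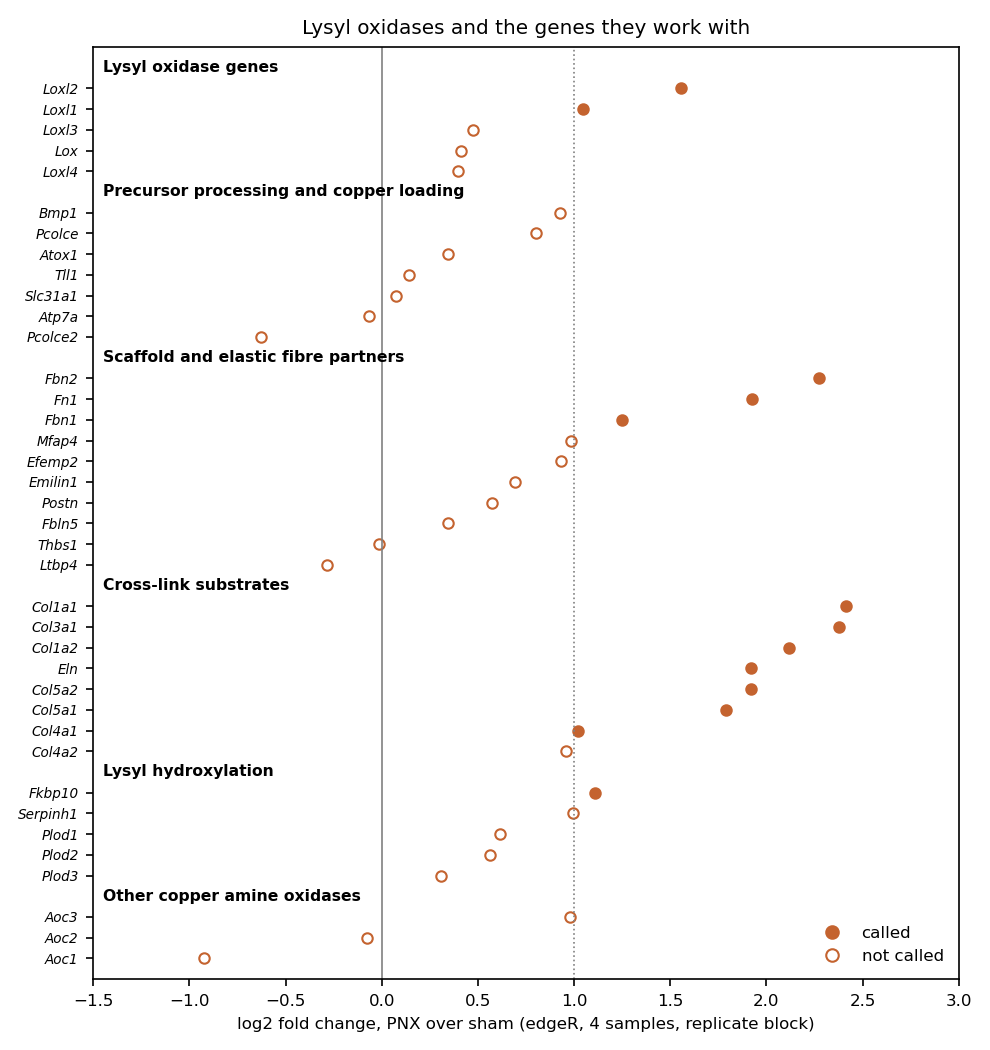
log2 fold change, PNX over sham, of the lysyl oxidase genes and of 5 lists of genes around them (x axis, edgeR with 4 samples and the replicate block; y axis, genes ordered within each list). Filled circles are called and open circles are not, and the dotted line marks the fold threshold of 1. Filled circles are 2 of 5 lysyl oxidase genes, 3 of 10 scaffold partners, 7 of 8 substrates and 1 of 5 lysyl hydroxylation genes.

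Fibroblasts, smooth muscle cells and mesothelial cells also express lysyl oxidases, so markers of the cell types the bead isolation could hold were summed in CPM. The 8 endothelial markers were all detected and summed to 6695 to 8044 CPM in sham against 6243 to 6978 CPM in PNX, with 0 called with the block. Within each deposit the endothelial sum was lower in PNX. It was 7973 and 8044 CPM in sham against 6957 and 6978 CPM in PNX in the earlier deposit, and 6695 against 6243 CPM in the later. The 8 fibroblast markers summed to 654 to 680 CPM in sham against 987 to 1231 CPM in PNX, and 3 of them were called higher (Dcn, Lum and Col14a1). The fibroblast sum was higher in every PNX library, while the list itself was divided. Pdgfra, a defining fibroblast receptor, was at 323 to 399 CPM in sham against 192 to 338 CPM in PNX. The 5 mesothelial markers summed to 98.8 to 304 CPM in sham against 260 to 759 CPM in PNX, with 4 called higher.

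The 8 smooth muscle and pericyte markers summed to 452 to 592 CPM in sham against 415 to 581 CPM in PNX, with 0 called. The 5 macrophage markers with values summed to 238 to 459 CPM and 644 to 762 CPM, with 3 called higher, and the 6 epithelial markers to 9047 to 9143 CPM and 2735 to 5990 CPM, with 2 called lower. Every PNX library was thus above the sham libraries in the macrophage sum and below them in the epithelial sum. The 6 platelet and megakaryocyte markers summed to 36.4 to 51.7 CPM and 51.1 to 55.9 CPM, with 1 called higher. The 4 adipocyte markers summed to at most 0.475 CPM in sham and at most 14.8 CPM in PNX, with 2 called higher, while Lep was at 0 in all sham libraries and Adipoq at 0 in sham replicate 3. No sum was at 0. Several of these sums differed between sham and PNX. In replicate 3 of both groups the fibroblast, mesothelial and macrophage sums were higher than in replicates 1 and 2. The endothelial sum was lower there, as Lox was, and no other sum went the same way in both groups. The part of these sums in the values of Lox, Loxl1, Loxl2, Loxl3 and Loxl4 was not tested. In bulk RNA a change in the number of cells of a type and a change in RNA per cell cannot be told apart.

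Genes with the pattern most like each member were found by the root mean square distance of centred log2 CPM over the 4 samples. For Loxl1 these were Tpbg (distance 0.05), Snord68 (0.05) and Fabp4 (0.07). Fabp4, which encodes a fatty acid binding protein, was at 14.7 and 14.1 CPM in the sham samples and 32.9 and 26.6 CPM in the PNX samples. For Loxl2 they were Lmnb2 (0.04), Epgn (0.05) and Col6a4 (0.08), of which Lmnb2, encoding lamin B2, was at 14.2 and 11.1 CPM in sham against 36.8 and 42.3 CPM in PNX.

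For Lox the nearest genes were Grin3b (0.04), AA543186 (0.05) and Mkrn3 (0.07), all below 3 CPM. Snord68 and Epgn were also low, at 0.140 to 0.327 CPM and 0.0294 to 0.169 CPM, so that their distances, like that of AA543186, rest on few counts. For Loxl3 they were Prelid1, Myadm and Plekhh3 (each 0.02), and for Loxl4 Ube2l6, Sat2 (each 0.01) and Rbbp7 (0.02). Within a distance of 0.1 there were 5 genes for Lox, 14 for Loxl1 and 11 for Loxl2, against 309 for Loxl3 and 543 for Loxl4. The patterns of Loxl3 and Loxl4 were thus shared by many genes over these 4 samples.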

How the data were processed

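RNAseq of lung ECs from 3 sham and 3 PNX libraries, each pooled from 2 mice, was analysed, and groups were taken from the labels. Stranded mRNA libraries were sequenced from both ends, and the authors aligned the reads to mm10 (the submitters' processing notes name STAR, without a version) and had them counted by Basepair. The authors deposited, for each library, the whole-number count of each RefSeq transcript, beside FPKM (scaled for transcript length and library) and TPM. How reads were counted, and on which annotation release, is not given in the sources used here. Deposited counts were summed per symbol and tested. The deposited FPKM entered no result, and the deposited TPM was used only for levels between genes.

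The edgeR test (edgeR 4.0.16 in R 4.3.3) used TMM scaling, filterByExpr with the groups, glmQLFit and glmQLFTest. DESeq2 1.42.0 (default filtering) and limma 3.58.1 (voom) were alternatives, as were other scalings and filters, 1 transcript per symbol and leaving out libraries. An SE of edgeR is the log2 fold change divided by the square root of F. Replicates were compared by chi-square over genes with at least 20 counts in the pair. As a check of the pairing, later minus earlier deposit was correlated between the groups across 14398 genes (Pearson's r = 0.762, Spearman's rho = 0.757, genes not being independent replicates). The replicate block with 4 samples is the same fit as one with deposit as covariate. Intervals are exact Clopper-Pearson intervals on the PNX share of the counts, divided by the scaled library sizes. Likeness used log2 CPM with a prior count of 2.

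The members, gene lists and marker lists were chosen with earlier results of these data known. From each list around the family the 3 genes highest in CPM and the 3 with the lowest p in the blocked fit were named, since the fit without block called none. Eln, Dcn, Lum, Col14a1, Pdgfra, Lep, Adipoq, Fbn2 and Htra2 were named after their values were seen. Positions, overlaps and sequences are from GENCODE vM21. All columns of samples were used. The other experiments of the paper were not analysed here.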

Additional observations from a re-analysis of the deposited data

How the results depend on the processing

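The number of genes tested differed between fits, from 15099 to 19812. The fit with 4 samples and no block called 0 of 16598 genes. Other scalings and other filters without the block, and limma-voom, also called 0. The count was 409 with 6 libraries, 849 with the replicate block, 920 with the block on 6 libraries, and 587, 927 and 816 with DESeq2 on 4 samples, on 6 libraries and with the block. It was 1203 with replicates 1 and 2 alone, whose spread is close to counting error. Leaving out 1 library without the block gave 0 to 2 genes (2 without PNX replicate 3), where a group left with a single sample is assumed to vary like the other group. In alternatives added after seeing the data, the block gave 624, 646 and 629 genes with RLE, upper-quartile and library-size scaling, 727 with the highest transcript, and 671, 668, 485 and 863 without sham replicate 1, sham replicate 2, PNX replicate 1 and PNX replicate 2. In every one of these 15 fits with 409 genes or more, 2 lysyl oxidase genes were called, Loxl1 and Loxl2. The fits on 6 libraries count the near-duplicate replicates 1 and 2 as separate samples.

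In the same order (6 libraries, block, block on 6 libraries, the 3 DESeq2 fits, replicates 1 and 2 alone), the log2 fold change of Loxl1 was 1.098, 1.044, 1.099, 1.042, 1.095, 1.041 and 1.207, and that of Loxl2 1.485, 1.556, 1.479, 1.560, 1.480, 1.561 and 1.337. With the block and the 8 added choices it was 1.043, 1.034, 1.049, 1.048, 1.035, 1.054, 1.046 and 1.040 for Loxl1, and 1.555, 1.547, 1.562, 1.559, 1.545, 1.575, 1.563 and 1.551 for Loxl2. With the block on 4 samples Loxl1 lies above the fold threshold of 1 by less than its SE. Lox turned direction without sham replicate 3, at -0.12, and leaving out 1 library gave -0.12 to 0.60; the cause was not tested. The replicate block changed no other call of a member. The directions of Loxl1, Loxl2, Loxl3 and Loxl4 were the same in all alternatives run. With 2 samples per group, and 1 residual degree of freedom with the block, the spread is estimated mostly from other genes.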
